A study of Homo sapiens with 2 samples.

Results

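Integrins, laminins and collagens are the genes through which a cell holds on to the matrix around it. The set was defined by gene symbol: every listed symbol that names an integrin alpha or beta chain, a laminin chain, or a collagen alpha chain. It holds 83 of the 26447 genes: 18 integrin alpha chains, 8 integrin beta chains, 12 laminin chains, 44 collagen chains and ITGBL1, a secreted protein that resembles a beta chain and matches the symbol pattern without being an integrin. RNA was sequenced from C4-2B ENZR, an established line of human prostate cancer cells that tolerates the prostate cancer drug enzalutamide, and both arms were grown with the drug at 20 µM. Cells of the control library were infected with lentivirus carrying a non-targeting short hairpin RNA (shControl, genotype given as WT), and those of the knockdown library with a hairpin against the coding region of NRP2 (shNRP2), both after antibiotic selection. NRP2 encodes neuropilin-2, which helps receptors of semaphorins and of VEGF family growth factors bind their ligands, and the comparison asks what differed when it was targeted. The labels describe a hairpin against NRP2 without naming further hairpins or clones.

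An integrin is a dimer of an alpha and a beta chain that spans the membrane, binds matrix outside the cell and recruits talin, kindlin and other linkers to actin inside it. Laminins are secreted trimers of an alpha, a beta and a gamma chain that polymerise into the basement membrane, the sheet under every epithelium. Collagens are trimers of chains wound into a helix: type IV forms the network of the basement membrane, type VII anchors it to the tissue below, and fibrillar types such as type I form the fibres of the stroma. In the normal prostate, luminal cells sit on basal cells that hold the basement membrane through the integrin of ITGA6 and ITGB4, and prostate cancers lose that basal layer.

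Each group holds 1 library, with 21052178 reads on genes in the control and 22992304 in the knockdown, so no difference below has a replicate check and none was tested between conditions. Values are reads per unit of library size after TMM scaling (CPM), given for the control and then the knockdown library. In bulk RNA, fewer cells with a transcript and less of it per cell cannot be told apart. Intervals in brackets are exact conditional binomial (Clopper-Pearson) 95% intervals of the plain CPM ratio from the recovered reads, and cover counting error only. The ratio is knockdown over control. After a value given as fold lower, the bracket holds control over knockdown instead, unless it is named a ratio interval. NRP2 itself was at 0.974 and 0.330 CPM, from 20 and 7 reads, which is 2.95-fold lower in the knockdown (ratio interval 0.121 to 0.835), and low in both. The related gene NRP1 was lower too, at 76.7 and 31.0 CPM, from 1576 and 657 reads (ratio interval 0.368 to 0.443). The part of NRP1 in the differences below was not tested. The cells carried prostate luminal RNA: all 12 luminal markers averaged over 1 CPM, with KRT8, a keratin of luminal cells, at 457 and 616 CPM. These markers differed in both directions between the libraries. Their ratios ran from 0.667 for FOXA1 (453 and 302 CPM) to 7.33 for KLK3 (5.60 and 41.0 CPM). Of 12 fibroblast and smooth muscle markers, 2 passed, the list summed to 5.79 and 5.75 CPM, and DCN, DES, DPT and CNN1 had 0 reads in both libraries. Of 12 leukocyte and platelet markers, 3 passed and the list summed to 12.7 and 14.2 CPM, of which CD68, a lysosomal protein, was 6.67 and 9.95 CPM. Of 8 endothelial markers, 2 passed, with sums of 5.31 and 6.56 CPM, and EMCN and TEK had 0 reads in both libraries. Of 7 basal epithelial markers, the linker DST alone passed, and KRT5 and KRT17 had 0 reads in both libraries.

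Type IV collagen genes lie in pairs that are read in opposite directions from a shared stretch of DNA, and in 1 of these pairs, COL4A5 and COL4A6, the partners differed in their ratio between the libraries. In RefSeq on GRCh38.p14, the upstream start of COL4A6 lies 380 bases from the start of COL4A5 on chromosome X, and COL4A6 has a second listed start inside its own gene. The windows below are the 250 bases before each start, 5′ to 3′ on the strand of the gene, and capitals mark matches to GGGCGG (the GC box), CCAAT (the CCAAT box), TATAAA (the TATA box), TGACTCA (the AP-1 element), ACGTG and GCGTG (cores of the hypoxia response element), each searched on both strands. No match overlapped another in the printed windows. The first COL4A6 window is chrX:108439459-108439708 on the minus strand, the second is chrX:108438423-108438672 on the minus strand, and the COL4A5 window is chrX:108439588-108439837 on the plus strand.
COL4A6 upstream start: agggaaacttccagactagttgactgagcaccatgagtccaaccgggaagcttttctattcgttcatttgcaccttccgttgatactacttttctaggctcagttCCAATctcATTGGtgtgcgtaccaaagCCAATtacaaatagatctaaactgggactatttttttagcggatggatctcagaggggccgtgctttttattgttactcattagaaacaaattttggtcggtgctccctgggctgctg
COL4A6 inner start: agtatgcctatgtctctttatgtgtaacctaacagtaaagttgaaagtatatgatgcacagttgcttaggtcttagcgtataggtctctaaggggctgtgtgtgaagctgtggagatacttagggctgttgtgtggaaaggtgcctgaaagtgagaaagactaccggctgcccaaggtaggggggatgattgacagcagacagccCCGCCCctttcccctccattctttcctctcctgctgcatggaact
COL4A5: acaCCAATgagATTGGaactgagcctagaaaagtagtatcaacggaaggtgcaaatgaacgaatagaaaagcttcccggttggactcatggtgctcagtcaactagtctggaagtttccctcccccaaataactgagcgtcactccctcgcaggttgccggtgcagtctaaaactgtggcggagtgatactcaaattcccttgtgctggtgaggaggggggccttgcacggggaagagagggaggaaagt
The COL4A5 window and the upstream COL4A6 window share 121 bases, so the 2 CCAAT matches of COL4A5 are the same bases as matches of COL4A6, which holds 3. The inner COL4A6 window holds a GC box and no CCAAT. The tables give 1 value per gene, so which COL4A6 start was used is not shown.

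COL4A5 and COL4A6 encode the alpha 5 and alpha 6 chains, which join in a type IV collagen trimer of some basement membranes. COL4A5 was at 36.5 and 35.2 CPM, from 749 and 747 reads. COL4A6 was at 1.22 and 3.21 CPM, from 25 and 68 reads, which is 2.63-fold higher in the knockdown (1.64 to 4.35). Thus COL4A5 was level within counting error (ratio 0.966, 0.872 to 1.07) while its divergent partner was higher, and the 2 intervals do not overlap. Among all 13316 genes averaging at least 1 CPM, 32.7% had such an interval above 1 and 24% below it. How often the genes of other pairs differ this way was not counted. Per kilobase of transcript COL4A5 stood 31.2-fold above COL4A6 in the control library and 11.4-fold above it in the knockdown library. The other type IV pairs had few reads. COL4A2 was at 1.12 and 1.09 CPM, and COL4A1, whose start lies 127 bases from it, had 0 and 3 reads. COL4A3 had 1 and 7 reads and COL4A4 had 2 and 3, from starts 419 bases apart.

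Of the 83 members, 40 averaged at least 1 CPM across the libraries and 43 did not, 12 of them with 0 reads in both. Changes are on the scale log2((knockdown CPM + 1)/(control CPM + 1)), which understates those of low genes, and the words higher and lower in a count mean a change of at least 1.5-fold there. Among the 40 members, 4 were higher (ITGA11, ITGB2, COL4A6 and COL22A1), 1 was lower (COL7A1) and 35 lay between. Over all 13316 genes with that mean, 5.78% were higher and 3.57% lower, and the members' shares, 10% and 2.5%, are counts of 4 and 1 that stand close to that background. The median log2 change was 0.04 for the members and 0.03 for all genes compared. ITGA11 passed the mean only through the knockdown library and ITGA7 only through the control. Counting intervals lay above a ratio of 1 for 14 members and below it for 8, against 32.7% and 24% of all genes compared.

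**Figure D1:**
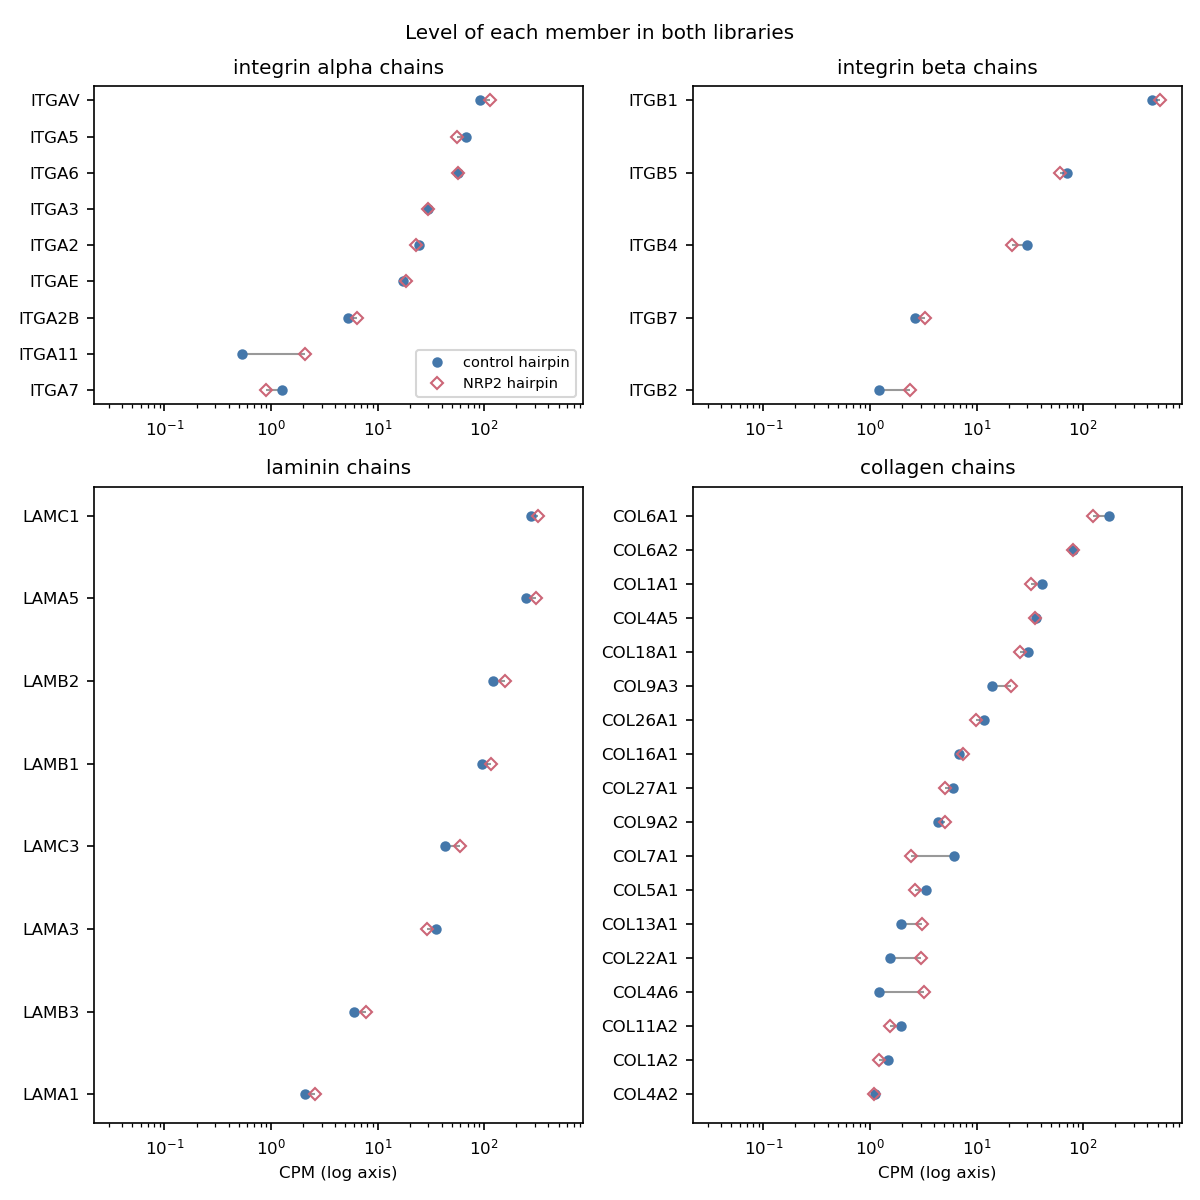
CPM of the 40 members compared (log axis), by class. Filled circles are the control library and open diamonds the knockdown library; most pairs of symbols nearly coincide, while ITGA11 (0.535 and 2.08 CPM), COL4A6 (1.22 and 3.21 CPM) and COL7A1 (6.18 and 2.45 CPM) are visibly apart.

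Among integrin receptors, the beta 1 chain dominated. ITGB1, which pairs with most alpha chains to bind collagen, laminin and fibronectin, was at 442 and 524 CPM, 1.19-fold higher (1.15 to 1.22). Per kilobase it reached 117 and 139 CPM, against 16.0 and 13.9 for ITGB5, the next beta chain. ITGB5, which pairs with ITGAV to bind vitronectin, was at 70.1 and 60.7 CPM, 1.15-fold lower (1.07 to 1.25). ITGB4, whose long tail ties the ITGA6-ITGB4 integrin to keratin filaments, was at 29.8 and 21.4 CPM, 1.39-fold lower (1.23 to 1.58). Neither difference reached 1.5-fold, so of 5 beta chains compared 1 was counted as higher and 0 as lower. Among all genes compared the shares were 5.78% and 3.57%. Summed over all 8 beta chains the level was 546 and 613 CPM, but without ITGB1 it was 104 and 88.6 CPM, so the sum was higher through ITGB1 and lower without it.

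The beta chain counted as higher was ITGB2, the beta chain of leukocyte integrins, at 1.22 and 2.36 CPM, from 25 and 50 reads (1.94-fold, 1.18 to 3.27). At 0.60 on the log2(CPM + 1) scale, ITGB2 was just past the threshold of 0.585. It fell under the threshold at 0.54 with equal library totals, 0.57 with the median of all genes at 0 and 0.54 under quantile normalization. Its alpha partners were close to absent: ITGAL had 5 and 4 reads, ITGAM 2 and 0, ITGAX 0 and 3, and ITGAD 0 in both. Leukocyte and platelet markers summed to 12.7 and 14.2 CPM and moved both ways. CD68 had a ratio of 1.49 and LYZ, the lysozyme of myeloid cells, one of 2.74 from 6 and 17 reads, both with intervals above 1. GP1BA, a platelet receptor chain, was below it at 2.97 and 1.70 CPM (0.368 to 0.877), and PTPRC, the pan-leukocyte phosphatase CD45, had 5 and 1 reads. PF4 and PPBP had 0 in both, and the part of such cells in the value of ITGB2 was not tested. The antisense gene ITGB2-AS1 shares 6.29% of the exon bases of ITGB2 and was at 0.0974 and 0.0943 CPM. ITGB7, a chain of lymphocyte homing integrins, was at 2.63 and 3.30 CPM with an interval across 1. Its value is uncertain, since 51.4% of its exon bases lie opposite exons of the zinc finger gene ZNF740 and no label says whether counting used strand. ITGB3, ITGB6 and ITGB8, partners of ITGAV, had 0 and 3, 7 and 12, and 5 and 2 reads.

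Alpha chains that bind fibronectin and vitronectin differed in opposite directions. ITGAV, the alpha V chain, was at 91.3 and 113 CPM, 1.23-fold higher in the knockdown (1.16 to 1.31). ITGA5, the alpha chain of the main fibronectin receptor, was at 68.3 and 55.2 CPM, 1.24-fold lower (1.14 to 1.34). Per kilobase ITGA5 led the alpha chains in the control, at 15.4 CPM against 13.0 for ITGAV, and ITGAV led in the knockdown, at 16.0 against 12.4 for ITGA5. Lengths are those of the longest protein-coding transcript of each gene. ITGA2B, the alpha chain of the platelet fibrinogen receptor, was at 5.26 and 6.46 CPM, within counting error (0.948 to 1.60).

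Alpha chains that bind laminin were within counting error of a ratio of 1. ITGA6 was at 57.3 and 56.5 CPM (ratio 0.986, 0.909 to 1.07) and ITGA3 at 29.6 CPM in each library (ratio 0.999, 0.892 to 1.12). These 2 chains form the main laminin receptors of epithelial cells, ITGA3 and ITGA6 with ITGB1 and ITGA6 also with ITGB4. Beside the lower ITGB4 level, the ratio of ITGA6 to ITGB4 per kilobase was 2.02 in the control and 2.78 in the knockdown. ITGA7, a laminin receptor of muscle, was at 1.27 and 0.896 CPM, from 26 and 19 reads.

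The collagen receptors include the member with the highest ratio among those compared. ITGA11, which binds fibrillar collagen and is known from fibroblasts, was at 0.535 and 2.08 CPM, from 11 and 44 reads, 3.87-fold higher (1.97 to 8.32). It is the only member at least 2-fold higher on the log2(CPM + 1) scale, at 1.00, where 1.46% of all genes compared were. ITGA11 sat at that threshold and passed the mean only through the knockdown library. Its change was 0.94 under equal library totals, 0.97 with the median of all genes set to 0 and 0.96 under quantile normalization. Summed fibroblast and smooth muscle markers were at 5.79 and 5.75 CPM. The 2 that passed, PDGFRB (2.43 and 1.89 CPM) and ACTA2 (1.56 and 2.03 CPM), differed in opposite directions, each within counting error. PDGFRA had 0.0487 and 0 CPM, and DCN 0 in both. THY1 was at 0 and 0.566 CPM, from 0 and 12 reads, with a ratio interval that starts at 2.69. The part of such cells in the value of ITGA11 was not tested. ITGA2, the collagen receptor of epithelial cells, was at 24.2 and 22.8 CPM, within counting error (0.827 to 1.07). Per kilobase ITGA2 was at 3.08 and 2.89 CPM and ITGA11 at 0.0525 and 0.204, so ITGA2 remained the more abundant. ITGA10 had 19 and 13 reads. ITGA1 had 9 and 0 reads, with a ratio interval of 0 to 0.491. Set against a floor of 3 reads per library, it was 3.10-fold lower.

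Among the remaining alpha chains, ITGAE, which pairs with ITGB7 and binds E-cadherin, was at 17.5 and 18.5 CPM (0.917 to 1.23). ITGA9, a receptor of tenascin, had 0 and 19 reads, with a ratio interval that starts at 4.52. Set against the same floor, it was 6.14-fold higher. It lies under the mean of 1 CPM, and ITGA9, ITGA1, COL17A1 and COL24A1 are named because theirs were the intervals that excluded 1 among the 43 low members, a choice made after their values were seen. ITGA4 and ITGA8 had at most 2 reads in a library. In total 9 of 18 alpha chains were compared, 1 was higher, 0 lower, and their median log2 change was -0.00. The shares over all genes compared were 5.78% higher and 3.57% lower.

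**Figure D2:**
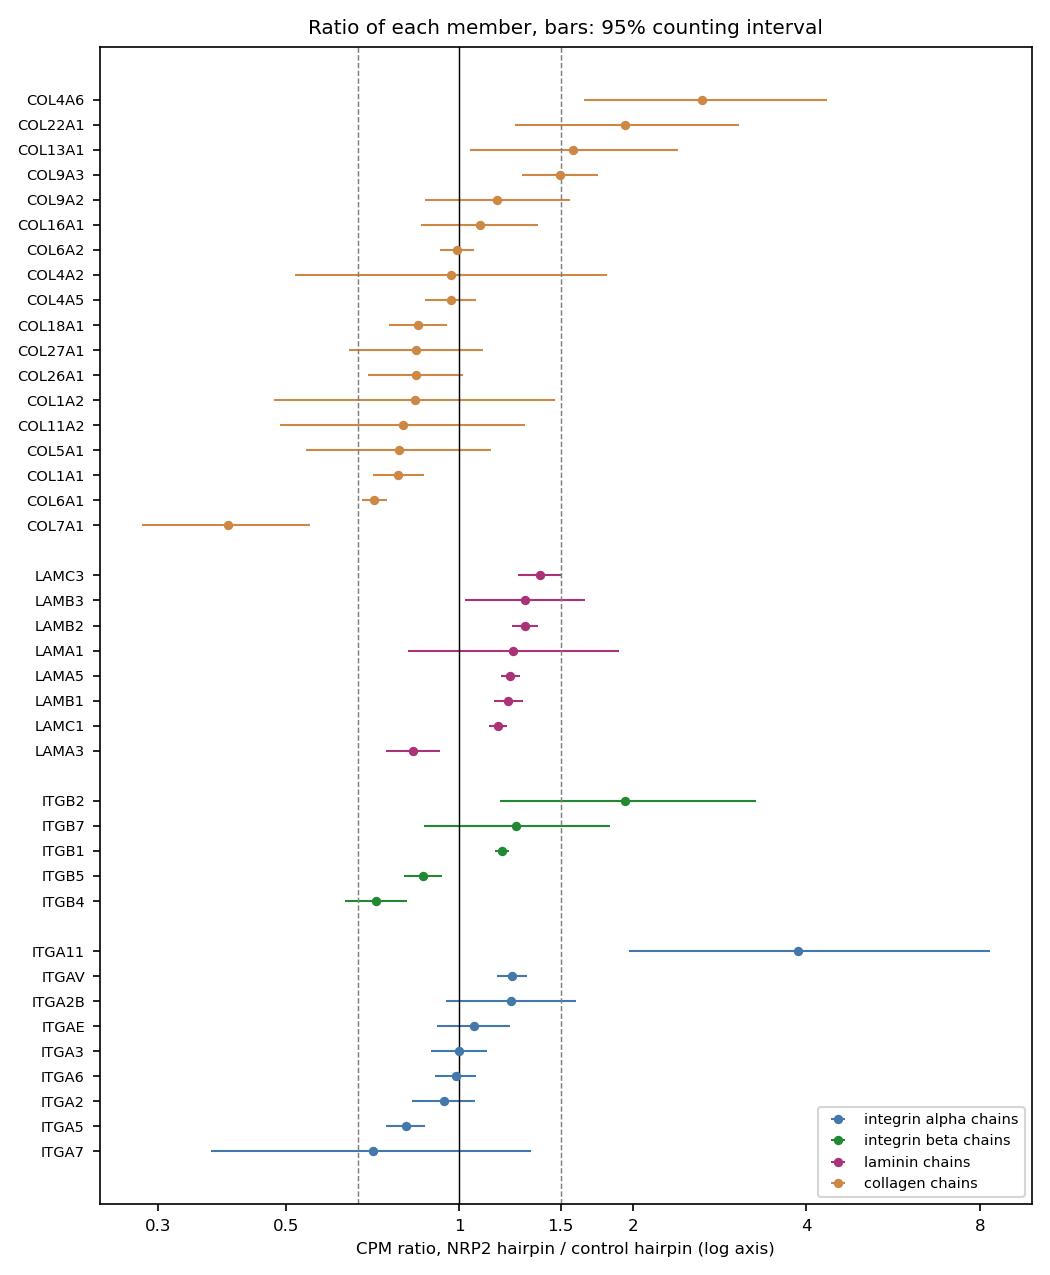
Ratio of knockdown to control CPM for each compared member (log axis) with its 95% counting interval as a bar, coloured by class. The solid line marks a ratio of 1 and the dashed lines a 1.5-fold difference; 7 of 8 laminin chains lie right of the solid line, and the intervals of COL4A6 and ITGA11 lie wholly right of the right-hand dashed line.

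Most laminin chains had slightly more RNA in the knockdown library, by less than 1.5-fold, and LAMA3 had less. Of 8 chains compared, 7 had a log2 change above 0, against 54.1% of all genes compared. The counting interval lay above 1 for 6 chains and below it for LAMA3, against 32.7% and 24% of all genes compared. In either direction 0 passed 1.5-fold, against 5.78% higher and 3.57% lower among all genes compared. The median log2 change was 0.29. Summed over all 12 chains, laminin RNA was at 826 and 998 CPM, a ratio of 1.21 (1.18 to 1.23), and without LAMC1, the most abundant chain, it was at 554 and 679 CPM, a ratio of 1.23. The median stayed above 0, at 0.21 under equal library totals, 0.26 with the median log2 ratio of all genes set to 0, and 0.22 under quantile normalization.

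The chains of the laminins that carry LAMA5 were the most abundant. LAMC1, the gamma chain of most laminins, was at 272 and 318 CPM, 1.17-fold higher (1.13 to 1.21). LAMA5, the alpha chain of adult epithelial basement membranes, was at 249 and 306 CPM, 1.23-fold higher (1.18 to 1.27). LAMB1 was at 96.3 and 117 CPM (1.22-fold, 1.15 to 1.29) and LAMB2 at 121 and 157 CPM (1.30-fold, 1.23 to 1.37). LAMB1 and LAMB2 are the alternative beta chains of these trimers, with LAMA5 and LAMC1. Per kilobase the 4 chains stood between 16.7 and 34.5 CPM in the control and between 20.3 and 40.4 CPM in the knockdown, above the other laminin chains. LAMC3, a gamma chain found in few tissues, was at 42.6 and 58.8 CPM, a ratio of 1.38 (1.27 to 1.51), the highest among the laminins compared.

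The promoter windows of LAMA5 and LAMC1 are shown because these chains share a trimer and were higher by like amounts. The LAMA5 window is chr20:62367313-62367562 on the minus strand and the LAMC1 window chr1:183023170-183023419 on the plus strand, in GRCh38.p14 from RefSeq.
LAMA5: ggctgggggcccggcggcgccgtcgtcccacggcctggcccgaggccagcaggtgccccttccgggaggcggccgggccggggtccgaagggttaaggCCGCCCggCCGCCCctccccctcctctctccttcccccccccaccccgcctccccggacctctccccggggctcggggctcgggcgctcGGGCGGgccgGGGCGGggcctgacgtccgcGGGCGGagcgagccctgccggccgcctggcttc
LAMC1: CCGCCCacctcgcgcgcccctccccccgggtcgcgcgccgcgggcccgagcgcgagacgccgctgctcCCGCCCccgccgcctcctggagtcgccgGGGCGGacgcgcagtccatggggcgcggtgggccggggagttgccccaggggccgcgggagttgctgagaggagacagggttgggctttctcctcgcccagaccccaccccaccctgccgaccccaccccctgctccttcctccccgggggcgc
Both are rich in G and C: LAMA5 holds 5 GC boxes and LAMC1 holds 3, and neither holds a match to the other motifs. A GC box was found in 53.8% of the 78 windows listed for members and in 42.6% of all 35116 windows. ACGTG was in 12.8% of the member windows and 18.5% of all, GCGTG in 30.8% and 32.2%, and CCAAT in 21.8% and 32%. TGACTCA was in 2.56% and 4.2%, and TATAAA in 12.8% and 10.7%. RefSeq windows were matched by symbol for 59 of the 83 members.

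LAMA3 and LAMB3, chains of the laminin that binds the ITGA6-ITGB4 integrin in basal epithelium, differed in opposite directions. LAMA3 was at 35.2 and 29.2 CPM, a ratio of 0.831 (0.745 to 0.926), the only laminin chain compared that was lower. LAMB3 was at 5.99 and 7.78 CPM, 1.30-fold higher (1.02 to 1.65). LAMB4, the neighbour of LAMB1 on chromosome 7, had 4 and 0 reads. LAMA1, an embryonic alpha chain, was at 2.09 and 2.59 CPM, within counting error. LAMA4 had 20 and 13 reads and LAMA2 had 0 and 1.

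**Figure D3:**
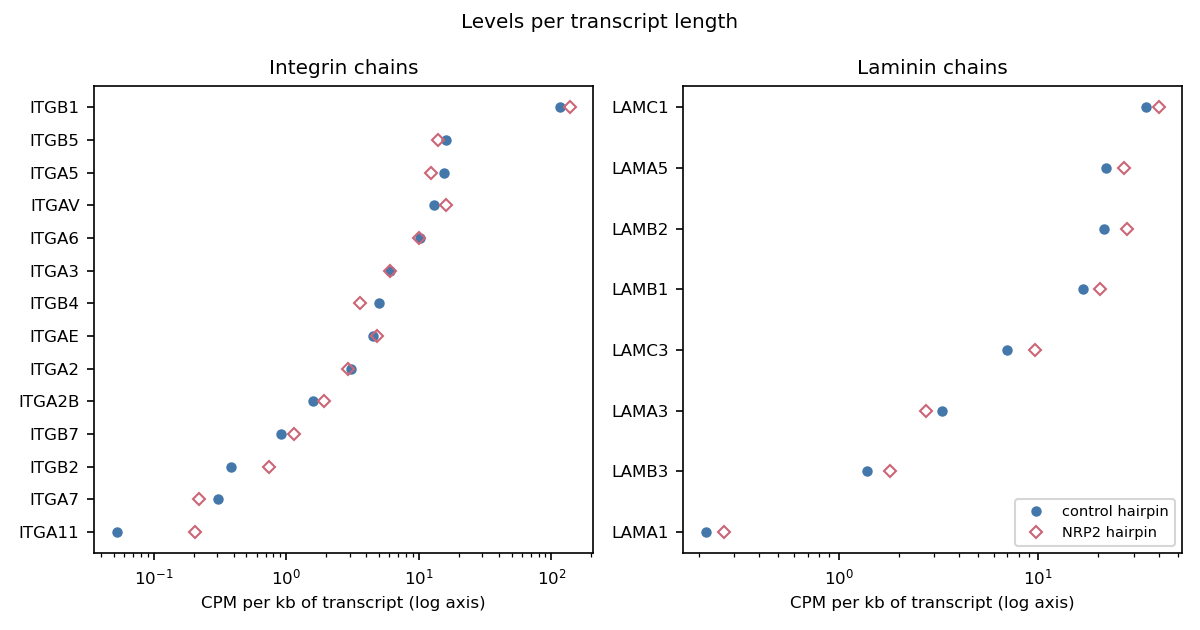
CPM per kilobase of the longest protein-coding transcript for compared integrin chains (left) and laminin chains (right), on log axes, in the control library (circles) and the knockdown library (diamonds). ITGB1 stands far above the other integrin chains at 117 and 139, and LAMC1 leads the laminins at 34.5 and 40.4.

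Collagens that attach to this laminin or sit beside it in the hemidesmosome, the basal anchor of epithelial cells, include COL7A1 and COL17A1. Of these, COL17A1 had few reads. COL7A1, the chain of the anchoring fibrils that bind this laminin from below, was at 6.18 and 2.45 CPM, from 127 and 52 reads. It was 2.52-fold lower (1.81 to 3.55), the only member counted as lower and the only one at least 2-fold lower, where 0.526% of all genes compared were. COL17A1, a transmembrane collagen of hemidesmosomes, had 1 and 14 reads, a ratio of 13.6 (2.06 to 573) at levels of 0.0487 and 0.660 CPM. COL17A1 is itself 1 of the 7 basal epithelial markers, which summed to 18.2 and 22.4 CPM. Most of that sum was DST at 17.9 and 20.9 CPM (ratio interval 1.02 to 1.35). Of the basal keratins, KRT14 and KRT15 also had more reads in the knockdown, KRT14 with 2 and 11 (ratio 5.33, 1.16 to 49.5) and KRT15 with 0 and 7. KRT5 and KRT17 had 0 reads in both libraries, and TP63, the transcription factor of basal cells, had 4 and 0. The part of basal cells in the value of COL17A1 was not tested.

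The windows before the starts of COL7A1 and ITGA11 are shown because these were the members with the lowest and the highest ratio among those compared. They lie at chr3:48595330-48595579 and chr15:68432164-68432413, both on the minus strand, in GRCh38.p14 from RefSeq.
COL7A1: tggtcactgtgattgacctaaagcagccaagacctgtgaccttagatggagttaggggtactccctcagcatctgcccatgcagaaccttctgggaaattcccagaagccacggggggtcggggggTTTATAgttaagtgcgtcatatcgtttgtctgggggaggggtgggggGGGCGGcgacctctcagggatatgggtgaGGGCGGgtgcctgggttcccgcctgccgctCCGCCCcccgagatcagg
ITGA11: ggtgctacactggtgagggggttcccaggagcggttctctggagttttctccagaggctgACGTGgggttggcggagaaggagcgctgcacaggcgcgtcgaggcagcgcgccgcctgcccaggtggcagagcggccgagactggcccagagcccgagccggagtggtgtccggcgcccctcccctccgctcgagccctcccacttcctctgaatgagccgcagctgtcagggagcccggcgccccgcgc
COL7A1 holds 3 GC boxes and a TATAAA match on the opposite strand 124 bases before the start. ITGA11 holds ACGTG 190 bases before the start and no other match.

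Collagen chains moved both ways. Of 44 chains, 18 were compared: 2 were higher and 1 lower, beside 5.78% and 3.57% of all genes compared. A log2 change above 0 was found for 6 of the 18, against 54.1% of all genes compared, and the median was -0.10. Summed over all 44, collagen RNA was at 429 and 369 CPM, a ratio of 0.862 (0.836 to 0.888). That sum rests on COL6A1: without it the ratio was 0.963 (0.927 to 1.00), with the interval reaching past 1.

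Type VI collagen, a beaded filament near basement membranes, gave the most abundant collagen chains per kilobase, COL6A1 at 41.0 and 29.2 CPM and COL6A2 at 23.4 and 23.2. COL6A1 was at 174 and 124 CPM, 1.40-fold lower (1.33 to 1.48). COL6A2, its neighbour on chromosome 21, was at 81.2 and 80.3 CPM (ratio 0.990, 0.924 to 1.06). The counting intervals of the 2 neighbours do not overlap, and how often other neighbours differ so was not counted. The ratio of COL6A1 to COL6A2 per kilobase was 1.75 in the control and 1.26 in the knockdown. The third chain of the classic trimer, COL6A3, had 1 and 6 reads, and COL6A5 and COL6A6, which can take its place, had 0 in both.

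Among fibrillar collagens COL1A1 was the most abundant per kilobase, at 6.17 and 4.84 CPM. COL1A1, the major chain of type I collagen, was at 41.5 and 32.5 CPM, 1.27-fold lower (1.15 to 1.41), while its partner COL1A2 was at 1.46 and 1.23 CPM. Per kilobase COL1A1 stood 22.8-fold and 21.3-fold above COL1A2, so the type I chains were unequal in both libraries. COL5A1 was at 3.36 and 2.64 CPM, COL11A2 at 1.95 and 1.56 CPM and COL27A1 at 5.99 and 5.05 CPM, each within counting error. COL3A1, a typical stromal chain, had 6 and 5 reads, and COL2A1 had 0 in both. COL24A1 had 19 and 7 reads, 2.80-fold lower (1.13 to 7.89).

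Fibril-associated collagens, which coat other fibres, were level or higher. COL9A3 was at 13.9 and 20.8 CPM, with a ratio between 1.29 and 1.74, and at 0.55 on the log2(CPM + 1) scale stayed just inside the threshold of 0.585. It shares 1.8% of its exon bases with TCFL5 on the other strand. COL9A2 was at 4.38 and 5.09 CPM, within counting error, and COL9A1, the remaining chain of type IX collagen, had 0 reads in both. COL22A1, found at tissue junctions, was at 1.56 and 3.02 CPM, from 32 and 64 reads, 1.94-fold higher (1.25 to 3.06). COL16A1 was at 6.91 and 7.50 CPM, within counting error.

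Among other collagens, COL18A1, a basement membrane chain that releases endostatin, was at 30.5 and 25.8 CPM, 1.18-fold lower (1.05 to 1.32). COL13A1, a transmembrane collagen, was at 1.95 and 3.07 CPM, 1.57-fold higher as a plain ratio (1.05 to 2.40) and 0.46 on the log2(CPM + 1) scale. COL26A1 was at 11.8 and 9.90 CPM, within counting error. The remaining low collagens gave at most 25 reads in a library, the highest being COL8A2 with 13 and 25.

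Other genes of adhesion were counted by role from 6 lists, and the gene of each list with the highest mean CPM over both libraries, not corrected for length, is named too. Their counts stand beside the 5.78% higher and 3.57% lower among all genes compared, and lists this small make each share a matter of a few genes. Linkers between integrins and actin were nearly level: of 23 compared, TNS3 (3.70 and 6.32 CPM) was higher and PARVA (17.5 and 9.20 CPM) lower, and the median was -0.07. PARVA, alpha-parvin, binds integrin-linked kinase, and FLNA, the filamin that crosslinks actin, had the highest mean at 583 and 522 CPM. Of 16 kinases and exchange factors that signal from integrins, the Src family kinase FYN (4.77 and 8.16 CPM) was higher and 0 lower, with a median of -0.01, and the adaptor CRKL had the highest mean at 145 and 114 CPM. Of 7 other basement membrane genes, SMOC2 (1.46 and 2.74 CPM) was higher and 0 lower, with a median of 0.08, and the laminin receptor dystroglycan (DAG1) had the highest mean at 398 and 409 CPM. Of 13 non-integrin receptors of laminin and collagen and their tetraspanin partners, TSPAN4 (14.8 and 24.3 CPM) was higher and 0 lower, with a median of 0.15, and RPSA had the highest mean at 1805 and 2071 CPM.

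Larger differences were found among the other ligands of integrins and the enzymes that build collagen. Of 9 ligands compared, 3 were higher and 2 lower, with a median of 0.20, and FN1 had the highest mean CPM. Over all genes compared, 5.78% were higher and 3.57% lower. Fibronectin (FN1), the ligand of ITGA5-ITGB1 and ITGAV integrins, was at 498 and 1541 CPM, while ITGA5 was 1.24-fold lower and ITGAV 1.23-fold higher. Thrombospondin-1 (THBS1, 24.6 and 67.1 CPM) and ICAM1 (29.6 and 45.4 CPM), a membrane ligand of ITGB2 integrins, were the other higher ligands. TNC, tenascin-C, a ligand of ITGA9, was lower at 22.8 and 4.43 CPM, and FBN1, fibrillin, was lower at 3.94 and 1.75 CPM. Of 21 collagen enzymes and chaperones, 5 were higher and 1 lower, with a median of 0.17. The prolyl hydroxylase chains P4HA1 (84.8 and 228 CPM) and P4HA2 (21.1 and 45.6 CPM) and the lysyl hydroxylases PLOD1 (244 and 420 CPM) and PLOD2 (1.22 and 26.8 CPM) were higher, as was the procollagen protease ADAMTS2 (0.925 and 2.45 CPM). ADAMTS2 passed the mean of 1 CPM only through the knockdown library. The crosslinking oxidase LOXL1 was lower, at 6.72 and 3.11 CPM, and P4HB, the shared beta chain of prolyl hydroxylases, had the highest mean at 941 and 1286 CPM. Summed collagen chains, the substrates of these enzymes, were at 429 and 369 CPM.

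**Figure D4:**
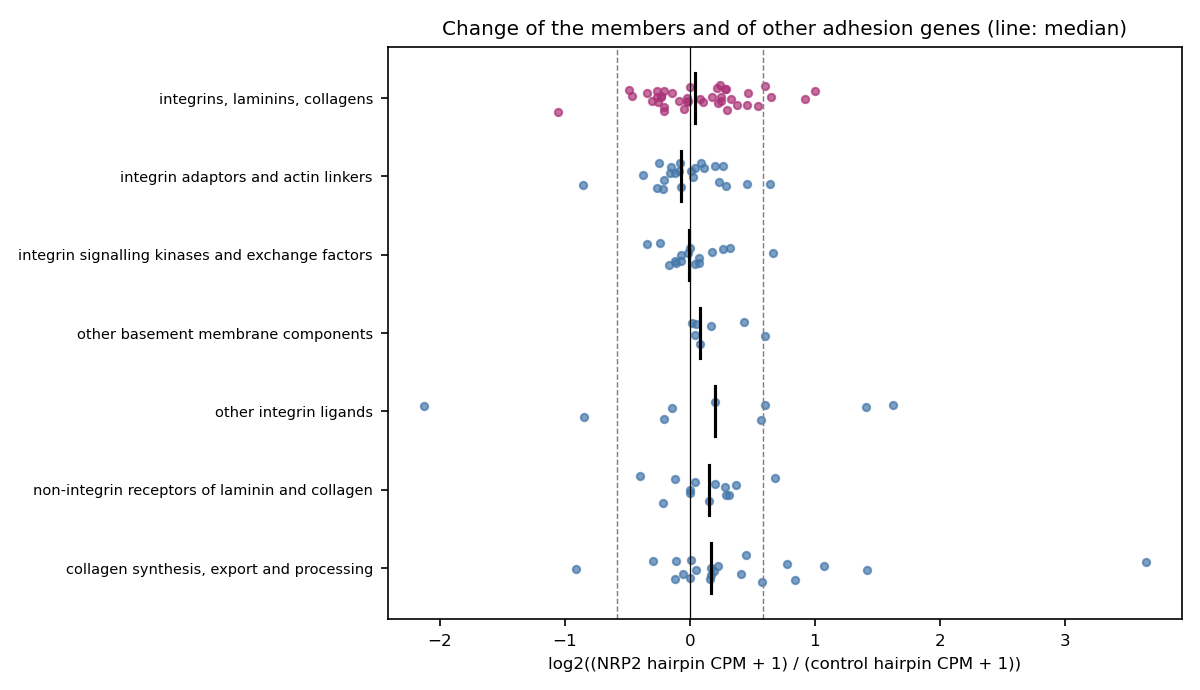
Change on the log2(CPM + 1) scale of the 40 compared members (top row) and of the compared genes of 6 other adhesion lists, 1 point per gene, with the median as a black line and 1.5-fold as dashed lines. The members cluster around a median of 0.04, while single ligands and collagen enzymes lie far out, with PLOD2 at 3.65 and TNC at -2.13.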

How the data were processed

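Each of the 2 RNA libraries has a deposited table of 26475 symbols. The authors gave a signal per gene, reads per unit of TMM-scaled library size (CPM), per the file headers and names. The submitters' processing notes name build hg19, edgeR, RSEM 1.2.15, Bowtie2 2.1.0 and bcl2fastq 2.17; annotation, strand setting and each tool's role: not given in the sources used here. All values (100%) were whole multiples, within 0.01 read, of 0.0487 CPM (control) and 0.0472 CPM (knockdown) per read, so reads were recovered. Symbols turned into dates (28) were left out. Python 3.11.15, scipy 1.17.1 and pandas 2.3.3 were used. Changes used a pseudocount of 1 CPM, a mean of at least 1 CPM and a 1.5-fold threshold. A floor of 3 reads per library served for zeros. Intervals were tried on simulated reads that held counting error only, the error they assume, so this trial cannot speak to variation between replicates. Lengths came from GENCODE 29 and promoters from RefSeq (GRCh38.p14), matched by symbol; no coordinate was joined to the hg19 values. Exons of 12 of 40 members overlap an opposite-strand gene. An exact conditional binomial test with Benjamini-Hochberg adjustment, added after seeing the data, called 7016 of 13316 genes and 21 of 40 members; it compares these 2 libraries, not the conditions. Every member with that mean is named, and in each list every gene past 1.5-fold and that of highest mean. Some members under that mean are not reported here. Members, lists and rules were chosen with earlier results of these data known.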

Additional observations from a re-analysis of the deposited data

How the results depend on the processing

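Of the 4 members counted as higher, all under 5 CPM, 2 were counted under quantile normalization, 1 at a 2-fold threshold, 0 with a pseudocount of 5 CPM and 0 with a mean of at least 5 CPM, a filter that also left 0 lower. That filter moved the median log2 change of the integrin beta chains from 0.25 to -0.20, since ITGB2 and ITGB7 drop out. Among other basement membrane genes the count of higher genes was 2 with a pseudocount of 0.25 CPM and 0 under equal library totals and quantile normalization, and among the actin linkers it was 0 under equal totals. The other 106 of 116 recomputed counts and median or NRP2 changes stayed within 1.5 times the count or within the counting interval, taken for a median as the median bounds of its genes. Of single members, some with narrow intervals moved past their bounds without changing direction. The log2 change of ITGB1 went from 0.25 to 0.16 under equal totals and 0.16 under quantile normalization, that of LAMC1 from 0.22 to 0.14 and 0.16, and that of LAMA5 from 0.29 to 0.21 and 0.22. Equal totals also took LAMB2 from 0.37 to 0.29 and COL6A1 from -0.49 to -0.57. A pseudocount of 5 CPM shrank COL4A6 to 0.40 and ITGA11 to 0.35, and left COL7A1 at -0.59. Equal totals moved the median of all genes from 0.03 to -0.05; ITGA3, at -0.00, was the only compared member whose sign differed under a scaling, at 0.00 under quantile normalization. No paired analysis was possible because each group holds 1 library, and for the same reason no replicate could be left out. Low depth limits the 43 members under 1 CPM, which had at most 25 reads.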
